A study of Bos taurus with 10 samples.

Results

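The genes of ketone body synthesis and use were compared between the livers of dairy cows fed conjugated linoleic acid (CLA), that is, isomers of linoleic acid whose double bonds are conjugated, and those of cows fed a control fat. The set was chosen by name, with earlier results of these data known, and held 5 genes, ACAT1, BDH1, BDH2, SLC16A1 and OXCT1. The further pathway lists were chosen with the same knowledge. Their counts beside the shares of all genes are therefore descriptive and no test of the sets. A gene was taken as measured where a probe set of the array carried its symbol and no other in the platform annotation, which left ACAT1, BDH1, BDH2 and SLC16A1, with 1 probe set each, among 9155 genes measured in this way. OXCT1 was not analysed here.

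The animals were 40 female Holstein cows with an average parity of 2.6, and liver was sampled by biopsy in week 5 of lactation. The 20 cows of the CLA group received a rumen-protected CLA fat and the 20 cows of the control group a rumen-protected control fat, both as 27.3% of an extra concentrate given at 630 g of dry matter a day, starting in week 3 prepartum and ending in week 14 postpartum. Both groups shared the same basal ration and had concentrate matched to milk yield. RNA of 4 cows was combined in each pool, with 5 CLA pools and 5 control pools and 1 Affymetrix bovine array per pool, so p-values measure the spread between pools and not between single cows, and in whole liver a change in cell numbers and a change in RNA per cell cannot be told apart.

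Ketone bodies are small acids that the liver makes from acetyl-CoA when fatty acids arrive faster than they can be oxidized, as in a cow in early lactation, and that other tissues burn as fuel. In liver mitochondria acetyl-CoA units are joined to acetoacetyl-CoA, from which acetoacetate is formed, and acetoacetate is reduced to β-hydroxybutyrate before leaving the cell through monocarboxylate carriers. In ruminants the rumen wall also forms β-hydroxybutyrate from butyrate. ACAT1 is the mitochondrial thiolase that joins the acetyl-CoA units, and it runs in reverse when ketone bodies are burned. BDH1 is the mitochondrial enzyme that interconverts acetoacetate and β-hydroxybutyrate. BDH2 is a cytosolic dehydrogenase for β-hydroxybutyrate, known in the mouse also for making an iron-binding siderophore. SLC16A1, or MCT1, carries lactate, pyruvate and ketone bodies across the cell membrane.

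The arrays of the 2 groups differed slightly in level and in spread. In log2 units the median of an array was 5.79 to 5.82 for the CLA pools and 5.83 to 5.85 for the control pools, without overlap (exact two-sided permutation p = 0.00794, the smallest that 5 pools against 5 can give). The standard deviation over all probe sets of an array was 2.38 to 2.43 in the CLA pools, against 2.34 to 2.39 in the control pools (exact two-sided permutation p = 0.0238). Hepatocyte markers were strong in every pool, with a mean over 11 markers between 12.3 and 12.5 in CLA pools and between 12.2 and 12.4 in control pools (exact permutation p = 0.238). CLA pool 4 stood apart in the mean of 3 adipocyte markers, at 5.27 against 4.24 or less in the other CLA pools. FABP4 alone set it apart, at 8.39 against 4.98 to 5.68 in the other CLA pools. ADIPOQ (3.21, others 3.03 to 3.25) and LEP (4.21, others 3.79 to 4.17) lay in or near the range of the others. Control pool 1 stood apart in the mean of 7 skeletal muscle markers, at 5.94 against 5.37 or less in the other control pools.

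The 2 mitochondrial enzymes, ACAT1 and BDH1, lay higher in the CLA pools by about 1.2-fold, whereas BDH2 and SLC16A1 differed by less than the spread between pools. None of the 4 genes passed limma's test with Benjamini-Hochberg adjustment over all 24016 probe sets (lowest adjusted p = 0.418, for ACAT1), and 0% of all probe sets passed it. At an unadjusted p under 0.05, 2 of the 4 genes were higher and 0 lower. Over all probe sets 4.01% were higher and 4.88% lower at that level. The median difference of the 4 genes was 0.14 on the log2 scale, against -0.01 over the 9155 genes.

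ACAT1 read 11.88, 12.12, 12.03, 11.81 and 11.83 in CLA pools 1 to 5, and 11.59, 11.70, 11.83, 11.59 and 11.68 in control pools 1 to 5, all log2 expression values. CLA pools 1, 2 and 3 lay above every control pool, CLA pool 5 equalled control pool 3, the highest of its group, and CLA pool 4 fell 0.02 below it. ACAT1 averaged 11.93 ± 0.14 in the CLA pools and 11.68 ± 0.10 in the control pools (SD, n = 5 each). The difference was 0.26 ± 0.081 SE (1.19-fold, 95% interval 0.08 to 0.43), with a Benjamini-Hochberg adjusted p of 0.418 in limma. The exact two-sided permutation test over all groupings of the arrays gave p = 0.0238 for ACAT1, against the same smallest possible p of 0.00794. Every CLA pool lay above the median control pool.

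BDH1 read 3.29, 3.43, 3.64, 3.33 and 3.62 in CLA pools 1 to 5, and 3.14, 2.91, 3.34, 3.23 and 3.35 in control pools 1 to 5. CLA pools 2, 3 and 5 lay above every control pool, while CLA pools 1 and 4 fell within the range of the control pools. BDH1 averaged 3.46 ± 0.16 in the CLA pools and 3.19 ± 0.18 in the control pools (SD, n = 5 each). Its difference was 0.27 ± 0.10 SE (1.20-fold, 95% interval 0.04 to 0.49), with a limma adjusted p of 0.497 and an exact permutation p of 0.0476. BDH1 was also a dim probe set: only 12.6% of all probe sets had a mean as low or lower. The deposited values carry no detection call, so it was not known whether this probe set read above background. The unadjusted limma p of BDH1 no longer lay under 0.05 without control pool 2 (difference 0.20), CLA pool 3 (0.22) or CLA pool 5 (0.23).

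BDH2 read 8.93, 9.84, 9.35, 9.29 and 8.94 in CLA pools 1 to 5, and 9.47, 9.23, 9.28, 9.13 and 9.10 in control pools 1 to 5. The CLA pools enclosed the control pools: CLA pool 2 was the highest of the 10 arrays, and CLA pools 1 and 5 were the lowest. BDH2 averaged 9.27 ± 0.37 in the CLA pools and 9.24 ± 0.15 in the control pools (SD, n = 5 each). The difference of BDH2 was 0.03 ± 0.16 SE (95% interval -0.31 to 0.37, limma adjusted p = 0.978, exact permutation p = 0.897). That interval leaves room for a change of the size seen for ACAT1 or BDH1 in either direction. Without CLA pool 2 the difference of BDH2 was -0.11.

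SLC16A1 read 6.01, 6.32, 6.18, 6.15 and 5.80 in CLA pools 1 to 5, and 6.13, 6.64, 6.23, 5.69 and 5.90 in control pools 1 to 5. Control pool 2 held the highest value and control pool 4 the lowest, so the control pools enclosed the CLA pools. SLC16A1 averaged 6.09 ± 0.20 in the CLA pools and 6.12 ± 0.36 in the control pools (SD, n = 5 each). The difference of SLC16A1 was -0.03 ± 0.16 SE (95% interval -0.37 to 0.32, limma adjusted p = 0.980, exact permutation p = 0.897). It was 0.10 without control pool 2 and -0.13 without control pool 4, so its direction rested on single pools.

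**Figure D1:**
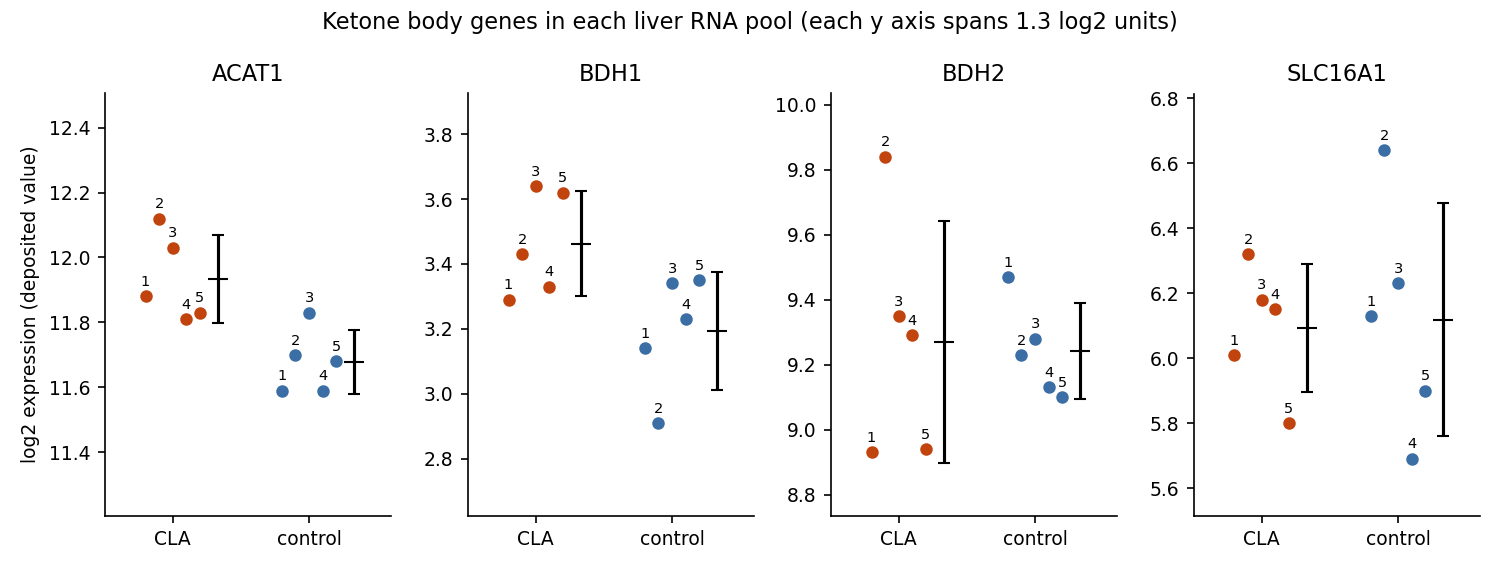
Log2 expression of ACAT1, BDH1, BDH2 and SLC16A1 in each RNA pool, with CLA pools left and control pools right in each panel, pool numbers above the points, and the mean with its SD (n = 5) beside them. ACAT1 and BDH1 sit higher in the CLA pools with some overlap, while BDH2 and SLC16A1 show a wide spread and no shift beyond it.

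The genes also differed in how much they varied between pools of the same group. BDH2 and SLC16A1 had within-group SDs of 0.28 and 0.29 on the log2 scale, larger than those of about 90.1% and 90.7% of all probe sets. The within-group SD of ACAT1 was 0.12 (26.6% of probe sets had one as small or smaller) and that of BDH1 was 0.17 (61.4%). A difference of 0.26, the size seen for ACAT1, is thus smaller than the within-group SD of BDH2 or SLC16A1.

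With group means removed, ACAT1 tended to be high in the pools where BDH2 and SLC16A1 were high. Across the 10 pools the Pearson correlation of ACAT1 was 0.59 with BDH2 (Spearman's rho 0.46) and 0.52 with SLC16A1 (rho 0.66), and that of BDH2 with SLC16A1 was 0.52 (rho 0.62). Leaving out the 2 pools farthest from the median of the first-named gene brought the first of these to 0.21, so it rested on those pools, and the others to 0.45 and 0.52. BDH1 did not follow ACAT1 closely (r = 0.24, rho = 0.14, and r = 0.19 without the 2 farthest pools). Its correlation with SLC16A1 was -0.54 (rho = -0.33), and -0.36 without the 2 farthest pools, so its size rested partly on them. These correlations are descriptive, since all values of a pool come from the same array and share its scaling.

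The spread of an array moved with some of these genes. With group means removed, ACAT1 correlated with the SD of its array at r = 0.61 (rho = 0.67, and r = 0.83 without the 2 pools farthest from the median SD), and BDH2 at 0.70 (rho = 0.82, and 0.69 without those 2 pools). SLC16A1 correlated at 0.52 (rho = 0.66), which fell to 0.26 without them. BDH1, whose probe set is dim, correlated at -0.25 (rho = -0.10), which turned to 0.37 without them, so its direction rested on those pools. Subtraction of array medians, which removes the difference in level, left ACAT1 higher in the CLA pools by 0.29 and BDH1 by 0.30. Quantile normalization, which gives all arrays the same spread, left ACAT1 higher in the CLA pools by 0.22 (limma adjusted p = 0.518) and BDH1 by 0.32 (adjusted p = 0.489). Cyclic loess normalization gave 0.22 for ACAT1 and 0.31 for BDH1. The 1000 probe sets nearest in brightness to ACAT1 had a median difference of 0.03 between the groups, and those nearest to BDH1 had one of -0.04. The difference of BDH1 and the median of the dim probe sets around it had opposite signs. That comparison was chosen after seeing the data, and it does not show whether the BDH1 probe set read above background.

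**Figure D2:**
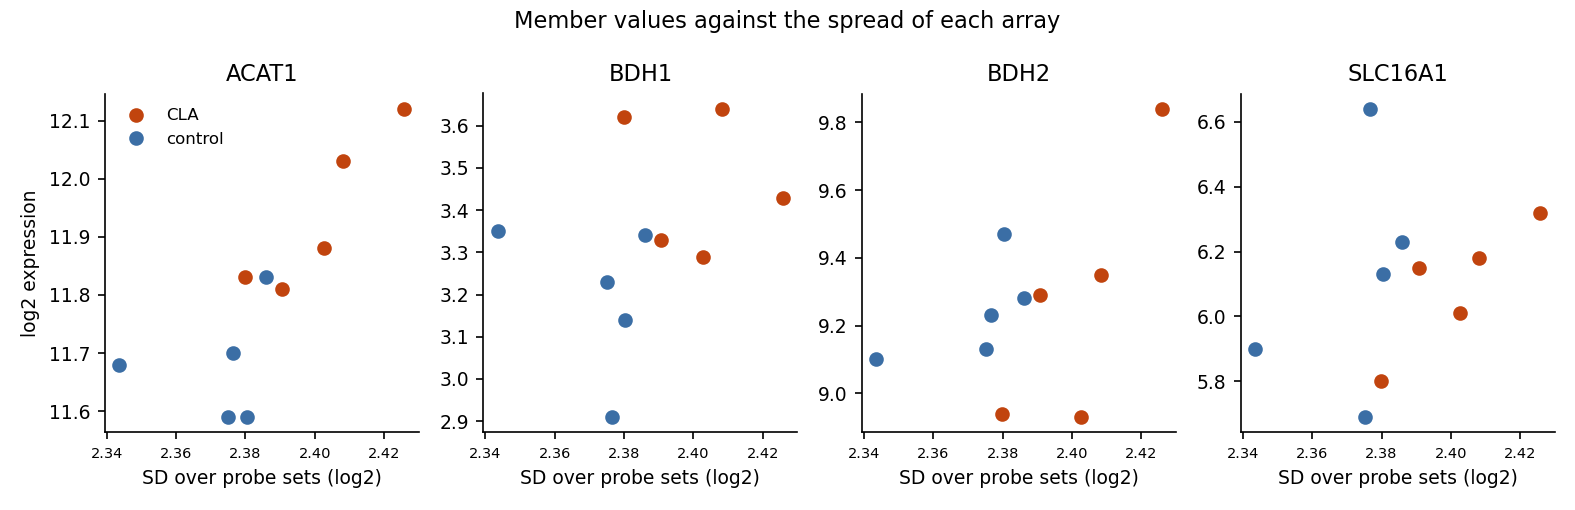
Log2 expression of each gene in a pool against the SD over all probe sets of that pool's array, with CLA pools in red and control pools in blue. ACAT1 is higher where the array SD is larger, which is also where most CLA pools lie, and the correlation of BDH1 within groups (-0.25) changes sign (0.37) without the 2 pools farthest from the median SD.

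**Figure D3:**
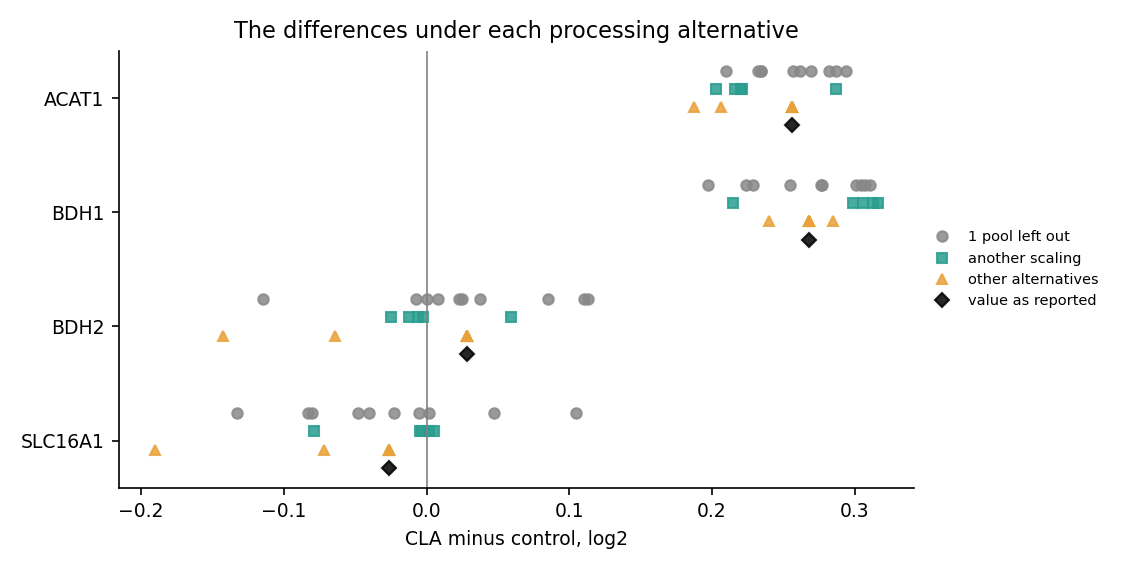
CLA minus control difference (log2) of the 4 genes as reported (black diamonds) and under each processing alternative, split into fits with 1 pool left out, other scalings of the arrays and other alternatives. ACAT1 (0.19 to 0.29) and BDH1 (0.20 to 0.32) stay above 0 in all of them, and BDH2 and SLC16A1 lie on both sides of 0.

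Cell type markers were compared beside these differences. T and NK lymphocyte markers were lower in the CLA pools for all 8 measured genes, with means between 6.40 and 6.68 in CLA pools and between 6.58 and 6.99 in control pools (exact permutation p = 0.0952). ZAP70 differed most among them, by -0.44 ± 0.11 SE (limma adjusted p = 0.332). Every CLA pool of ZAP70 lay below every control pool, as for 64 of all 9155 genes, while the groups of the other lymphocyte markers overlapped. Kupffer cell and macrophage markers were lower for all 6 measured genes, and for 4 of 6 after subtraction of array medians. As deposited, their means lay between 9.30 and 9.59 in CLA pools and between 9.29 and 9.68 in control pools (exact permutation p = 0.381). CD14 was counted as lower at only -0.004. Its brighter probe set read 9.60 in CLA pool 2 and 10.96 to 11.13 in the other CLA pools, against 10.49 to 10.93 in control pools. Hepatocyte markers were higher for 10 of 11. That count was 11 after subtraction of array medians, 7 after quantile and 6 after cyclic loess normalization. After the mean of the hepatocyte markers was subtracted from each array ACAT1 was higher by 0.20 (limma adjusted p = 0.519) and BDH1 by 0.21 (adjusted p = 0.563). Without CLA pool 4, which stood apart in the adipocyte marker FABP4, ACAT1 was higher by 0.29 and BDH1 by 0.30. Without control pool 1, which stood apart in muscle markers, they were higher by 0.23 and 0.25.

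The acetyl-CoA that ACAT1 uses comes largely from mitochondrial fatty acid oxidation, and 13 of 15 listed genes of that supply were measured. Of the 13, 11 had a higher mean in the CLA pools and 2 a lower one, and the median difference was 0.07 (0.04 to 0.12 with 1 pool left out), while 46% of all genes were higher. At an unadjusted p under 0.05, 3 were higher and 0 lower, where 4.35% of all genes were higher and 4.15% lower. Of the 13, 0 passed the adjusted test. All 13 were bright: for the dimmest, HADHA, 89.0% of all probe sets had a mean as low or lower. The shares of all genes are thus not matched to them in brightness. For comparison, the 1000 probe sets nearest in brightness to ACAT1 had a median difference of 0.03. Some of the 11 higher means differed little: ACADL by 0.002 (-0.22 at a dimmer probe set) and ACADS by 0.016. ACAA2 is a mitochondrial thiolase that releases acetyl-CoA at the end of an oxidation round. It read 12.48, 12.79, 12.51, 12.58 and 12.44 in CLA pools 1 to 5, and 12.33, 12.36, 12.37, 12.43 and 12.32 in control pools 1 to 5. The groups of ACAA2 did not overlap, though only by 0.01 between CLA pool 5 and control pool 4 (1.47% of all genes had every CLA pool above every control pool). Its difference was 0.20 ± 0.076 SE, with a limma adjusted p of 0.490. After quantile or cyclic loess normalization 9 of the 13 were higher, with medians of 0.03 and 0.04, and after subtraction of the hepatocyte markers the median was 0.02.

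ETFB, a subunit of the flavoprotein that takes electrons from the acyl-CoA dehydrogenases, was higher by 0.19 ± 0.074 SE (limma adjusted p = 0.494), and its unadjusted p stayed under 0.05 in 6 of 10 fits with 1 pool left out. ETFB read 9.63, 9.56, 9.61, 9.46 and 9.37 in CLA pools 1 to 5, against 9.26, 9.23, 9.42, 9.39 and 9.37 in control pools 1 to 5. CLA pool 5 equalled control pool 5 and lay below control pools 3 and 4. ACADM, which starts the oxidation of medium-length chains, was higher by 0.14 ± 0.061 SE (limma adjusted p = 0.540), and its unadjusted p stayed under 0.05 in 2 of those 10 fits and in 8 of 21 alternatives. CLA pool 1 of ACADM, at 12.88, lay below control pool 1, at 12.91, and the other CLA pools lay above every control pool. Of the other genes, HADHA, which carries hydratase and dehydrogenase steps for long chains, differed by -0.22 ± 0.12 SE, and its partner subunit HADHB by 0.09 ± 0.12 SE. HADHB read 11.41 in CLA pool 2 and 10.71 to 10.76 in the other CLA pools, against 10.71 to 10.88 in the control pools.

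ACAT1 also cleaves the last intermediate of isoleucine breakdown, and all 9 listed genes of that route and of propionyl-CoA carboxylase were measured. Of these, 7 had a higher mean in the CLA pools and 2 a lower one, and the median difference was 0.06, where 46% of all genes had a higher mean. At an unadjusted p under 0.05, 2 were higher and 0 lower, against 4.35% of all genes higher and 4.15% lower. DBT, the E2 core subunit of the branched-chain ketoacid dehydrogenase, read 8.91, 9.16, 9.06, 8.99 and 8.92 in CLA pools 1 to 5, and 8.65, 8.60, 8.67, 8.54 and 8.65 in control pools 1 to 5. Every CLA pool of DBT lay above every control pool by at least 0.24, with a difference of 0.39 ± 0.069 SE (1.31-fold, limma adjusted p = 0.252). A second, dim DBT probe set differed by 0.01, and the mean of both differed by 0.20.

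DLD, the E3 subunit that this dehydrogenase shares with the pyruvate and ketoglutarate dehydrogenases, read 10.06, 10.16, 10.12, 10.01 and 9.99 in CLA pools 1 to 5, and 9.80, 9.81, 9.91, 9.63 and 9.77 in control pools 1 to 5. Its groups did not overlap either, and the difference was 0.28 ± 0.070 SE (1.22-fold, limma adjusted p = 0.332). Both genes thus lay apart, 2 of 9 against the 1.47% of all genes. After subtraction of the hepatocyte markers 5 of the 9 genes were higher, with a median of 0.007, while DBT and DLD were higher by 0.33 and 0.23. The E1 subunits of the complex differed by 0.15 ± 0.079 SE for BCKDHB and by 0.03 ± 0.086 SE for BCKDHA. BCAT2, the aminotransferase of the first step, differed by -0.19 ± 0.12 SE, and by -0.05 at a second probe set. HSD17B10, the dehydrogenase just before the ACAT1 step, differed by 0.06 ± 0.080 SE. ACADSB, an acyl-CoA dehydrogenase of the same list, differed by -0.002 ± 0.18 SE at a dim probe set. The carboxylase subunits PCCA and PCCB differed by 0.06 ± 0.072 SE and 0.05 ± 0.084 SE.

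**Figure D4:**
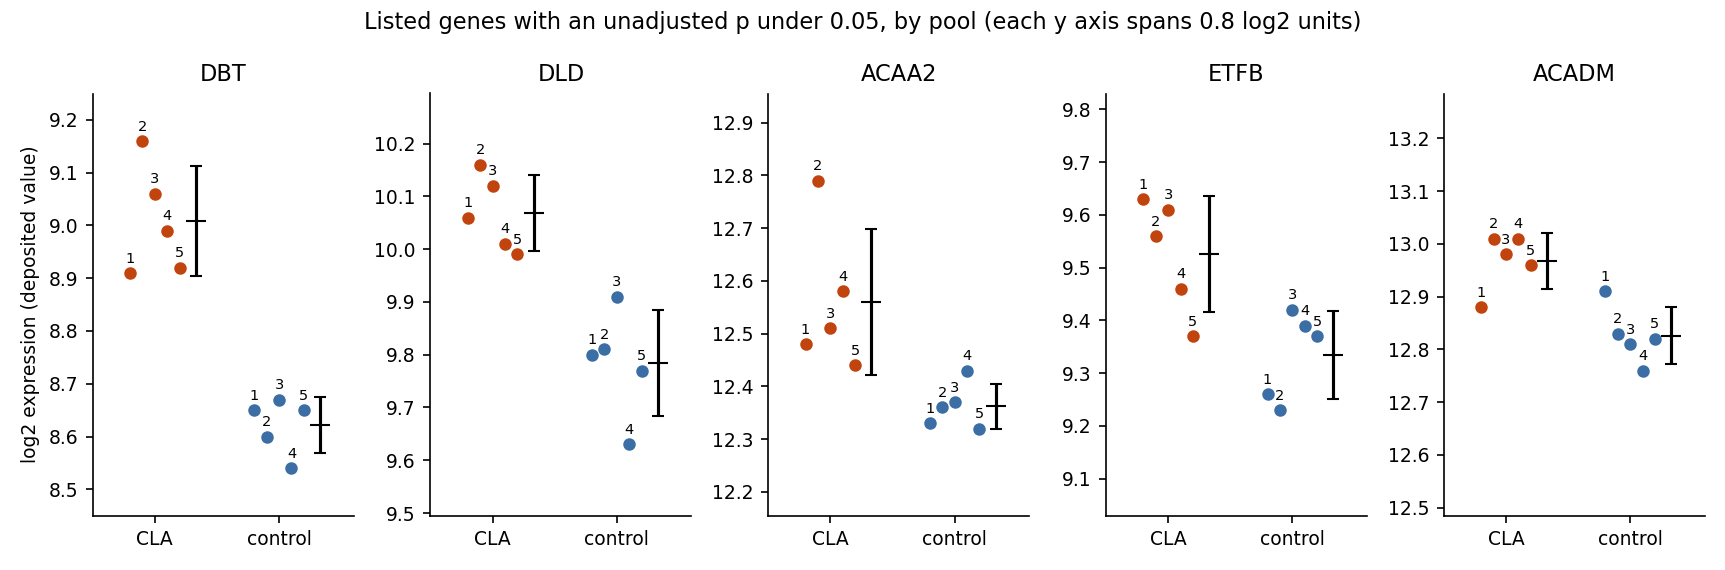
Log2 expression by pool of DBT, DLD, ACAA2, ETFB and ACADM, the pathway genes with an unadjusted limma p under 0.05 at their brightest probe set, with CLA pools left and control pools right and the mean with its SD (n = 5) beside the points. DBT, DLD and ACAA2 have every CLA pool above every control pool, and ETFB and ACADM overlap.

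At its brightest probe set none of the remaining pathway genes had an unadjusted p under 0.05, though a dim probe set of INSR, described with the regulators, did. In the cytosol AACS, which activates acetoacetate for lipid synthesis, differed by 0.04 ± 0.075 SE at its brighter probe set and by -0.09 at the other. ACAT2, the cytosolic thiolase, differed by -0.10 ± 0.10 SE, opposite in sign to its mitochondrial counterpart ACAT1, and HMGCS1, the cytosolic HMG-CoA synthase of cholesterol synthesis, by 0.08 ± 0.18 SE. The median of these 3 genes was 0.04, and it turned negative without control pool 1 (-0.0075) or control pool 4 (-0.0085). The difference between ACAT1 and ACAT2 in response was not tested.

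The carriers and their partner protein had 3 of 10 listed genes measured, and all 3 were lower in the CLA pools at their brightest probe sets, as deposited and under each of 4 other scalings, with a median of -0.10. BSG, or basigin, the chaperone that brings SLC16A1 to the cell surface, differed by -0.16 ± 0.10 SE at its bright probe set and by 0.04 at its dim one. SLC16A3, a lactate carrier, differed by -0.10 ± 0.14 SE, and by 0.00 and 0.04 at its dimmer probe sets. SLC16A13 differed by -0.05 ± 0.092 SE, and by -0.13 and 0.12 at its dimmer ones. Each of the 3 genes thus had a dimmer probe set that was not lower in the CLA pools. FFAR3, a receptor for short-chain fatty acids on which β-hydroxybutyrate also acts in the mouse, differed by -0.25 ± 0.13 SE (limma adjusted p = 0.589), and by -0.06 at its other probe set.

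Of 11 listed regulators of ketogenesis 8 were measured, with 3 higher and 5 lower in the CLA pools and a median of -0.06. The median turned positive without CLA pool 4 (0.019) or CLA pool 5 (0.011). The split was 1 to 7 after quantile or cyclic loess normalization. PPARA, the fatty acid receptor that switches on hepatic ketogenesis in fasting, differed by -0.27 ± 0.17 SE (limma adjusted p = 0.688) at its brighter probe set and by -0.01 at the other. Its coactivator PPARGC1A differed by 0.02 ± 0.093 SE, and dimmer probe sets of it ran from -0.02 to 0.10. SIRT3, the mitochondrial deacetylase, differed by 0.03 ± 0.090 SE and by -0.15 at its other probe set, and CREB3L3, a fasting-responsive transcription factor of the liver, by -0.08 ± 0.14 SE. Among their brightest probe sets the largest difference was that of the insulin receptor INSR, -0.37 ± 0.18 SE (limma adjusted p = 0.568).

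The 5 probe sets of INSR did not give the same difference. A dim one read 3.82, 3.51, 3.75, 3.89 and 3.94 in CLA pools 1 to 5, and 4.07, 4.14, 4.17, 4.03 and 3.97 in control pools 1 to 5. Every CLA pool of this INSR probe set lay below every control pool, with a difference of -0.29 ± 0.087 SE (limma adjusted p = 0.399). The other INSR probe sets differed by -0.30, -0.13 and -0.004, with overlapping groups.

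**Figure D5:**
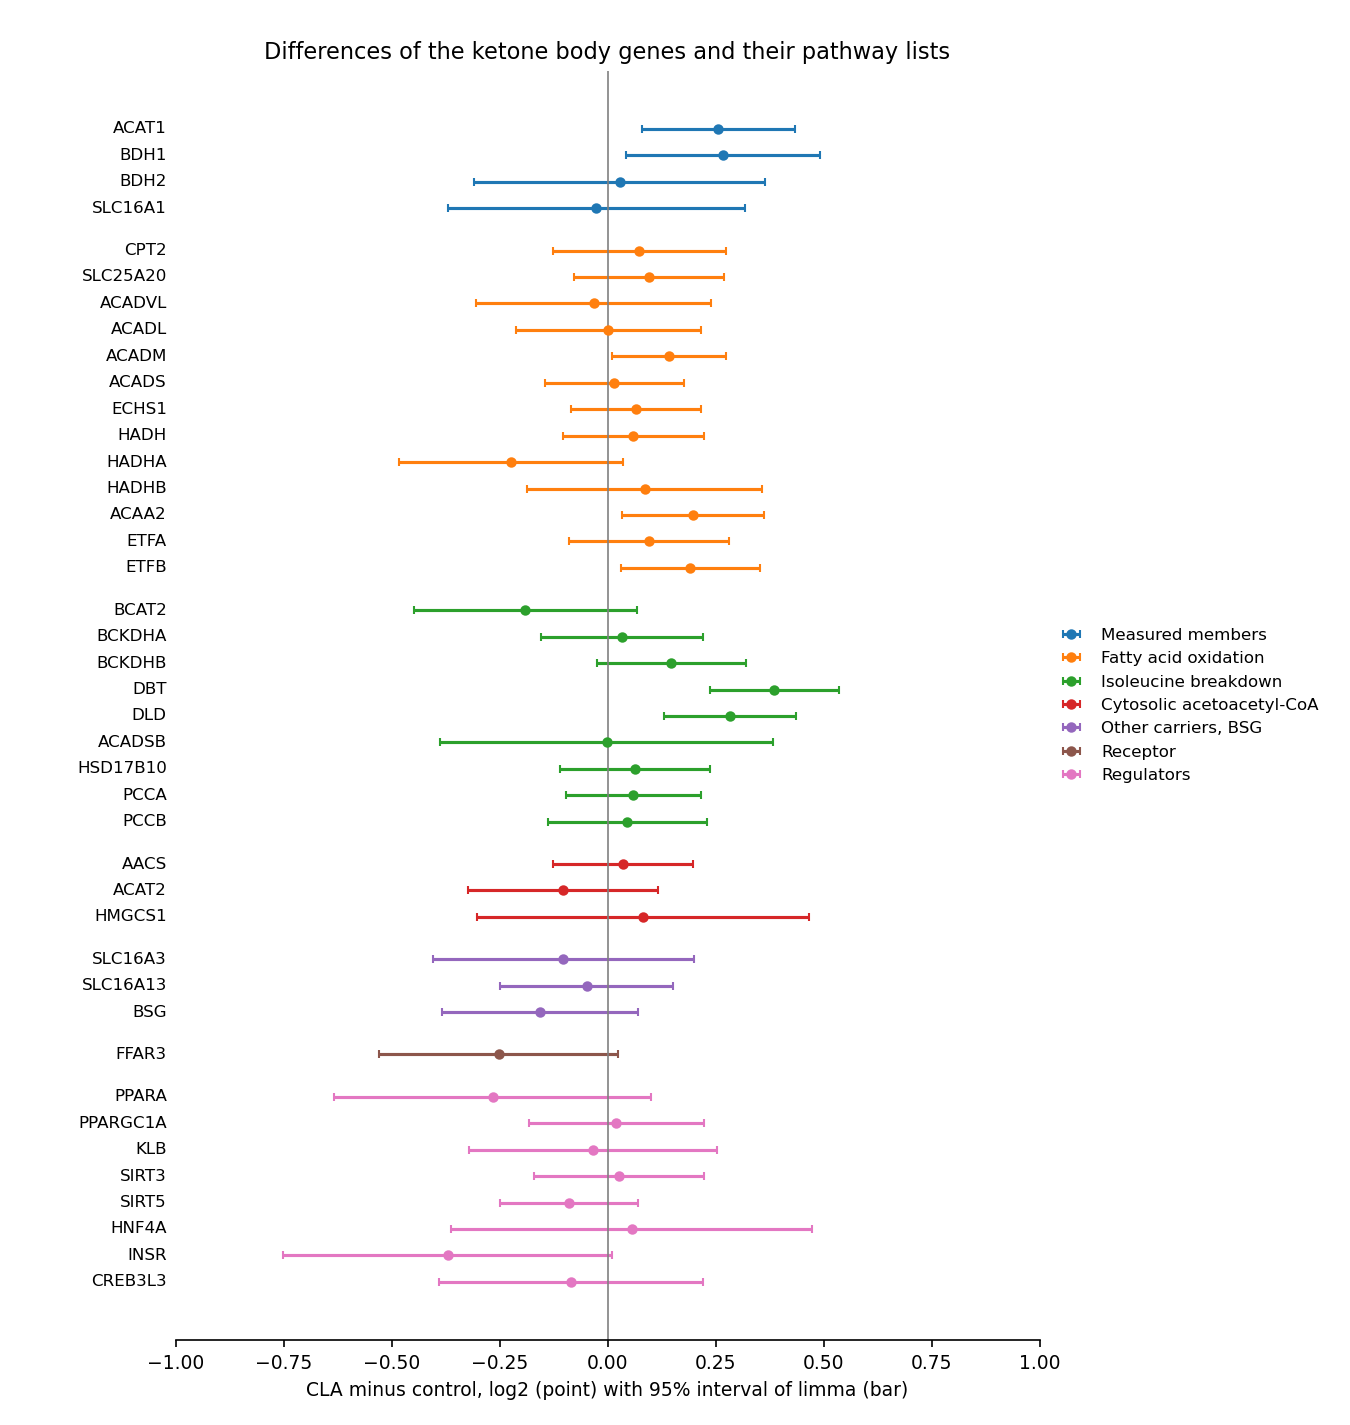
CLA minus control difference on the log2 scale (points) with limma's 95% interval (bars, not adjusted for the number of probe sets) at the brightest probe set of each gene, grouped by role and colour. The intervals of ACAT1, BDH1, ACADM, ACAA2, ETFB, DBT and DLD lie above 0, and all others span it.

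Genes with the most similar pattern over the pools were sought for each gene among 9154 others, by the Pearson correlation over the 10 pools with group means removed. For ACAT1 they were C29H11orf24 (r = 0.93), SYVN1 (0.92) and MCEE (0.92). For BDH1 they were INPP5K (0.93), MAPK10 (0.92) and SRSF5 (0.91). BDH2 was most like RHNO1 (0.96), POLK (0.95) and XAF1 (0.95), and SLC16A1 most like NMI (0.98), PDCD10 (0.97) and DAPP1 (0.97). Between the groups the 3 genes nearest to ACAT1 differed by 0.06, 0.04 and 0.03. Those nearest to BDH1 differed by -0.02, 0.07 and 0.29, the last being SRSF5 (limma adjusted p = 0.470). The 3 nearest to BDH2 differed by 0.11, 0.19 and -0.02, and the 3 nearest to SLC16A1 by 0.09, 0.16 and -0.01. Since group means were removed, the likeness describes the spread within groups alone. The correlations named are the highest of 9154 on only 10 pools, and how high the best of so many unrelated genes would reach was not tested.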

How the data were processed

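The authors deposited 1 normalized log2 value for each probe set on each array, to 2 decimals. Affymetrix Expression Console 1.1 and RMA are named in the submitters' processing notes, with no order or settings. No normalization was added to the main values. Of 24128 probe sets, 112 manufacturer controls were left out and 24016 tested. Names came from the platform annotation: 13292 probe sets had 1 gene symbol, 86 had several and 10638 none. The gene identifiers of the 4 measured genes matched the same symbols in RefSeq (assembly ARS-UCD2.0). The sources name no genome build for the array, so genes are given without coordinates.

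The CLA minus control difference of every probe set was fitted with lmFit and eBayes (limma 3.58.1, R 4.3.3) from all 10 arrays, with no covariate, and p-values were adjusted over all tested probe sets. The brightest probe set stood for a gene in counts. Genes named beyond the 5 chosen ones came from 7 pathway lists, by an unadjusted p under 0.05, with the other list genes as values. The members and lists were chosen with earlier results of these data known. The marker lists covered 9 cell types. Those not given in the report differed by less than the spread between pools: erythroid -0.07, endothelial 0.05, stellate cell and fibroblast 0.11, cholangiocyte -0.04, skeletal muscle -0.10 and adipocyte 0.18 (exact permutation p from 0.325 to 0.746). Pool numbers were checked for pairing. The number of arrays limits the precision. Alternatives are given in the closing section.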

Additional observations from a re-analysis of the deposited data

Results flagged for a closer look

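In 3 of 40 groups of 5 pools that were examined, 1 pool lay farther from the rest than Dixon's 95% limit allows, and chance alone gives about 1 in 20. The mean of the adipocyte markers was 5.27 in CLA pool 4, against 3.99 to 4.24 in the other CLA pools, through FABP4 alone. The mean of the skeletal muscle markers was 5.94 in control pool 1, against 5.22 to 5.37 in the other control pools. The SD over the probe sets of the array was 2.34 in control pool 5, against 2.38 to 2.39 in the other control pools. ACAT1 was higher in the CLA group by 0.29, 0.23 and 0.26 without CLA pool 4, control pool 1 and control pool 5 in turn, and BDH1 by 0.30, 0.25 and 0.31. Their part in the differences was not tested otherwise.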

How the results depend on the processing

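ACAT1 stayed higher in the CLA pools in all 22 alternatives (0.19 to 0.29, limma adjusted p from 0.312 to 0.719) and BDH1 in all 21 that kept it (0.20 to 0.32, adjusted p from 0.418 to 0.771). The unadjusted p stayed under 0.05 in 22 of 22 for ACAT1 and in 17 of 21 for BDH1. With 1 pool left out, ACAT1 ran from 0.21 to 0.29, BDH1 from 0.20 to 0.31, BDH2 from -0.11 to 0.11 and SLC16A1 from -0.13 to 0.10. BDH2 turned negative after quantile normalization (-0.012), cyclic loess normalization (-0.0025), subtraction of the hepatocyte marker mean (-0.025) or of the median of the 1000 probe sets nearest in brightness (-0.006), with array weights (-0.064) and without CLA pool 2 and control pool 4 (-0.14). SLC16A1 turned positive after subtraction of array medians (0.005) and cyclic loess normalization (0.0016). Neither gene had an unadjusted p under 0.05 in any alternative, and the cause of the turns was not tested. The count of the 4 genes higher at an unadjusted p under 0.05 was 1 to 2 with 1 pool left out, 1 without the dimmest 30% of probe sets, which removes BDH1, and 1 after subtraction of the hepatocyte markers. For the isoleucine list it was 2 to 3 with 1 pool left out and 3 after subtraction of array medians. DBT and DLD kept their direction and an unadjusted p under 0.05 in 21 of 21 alternatives each (0.20 to 0.42 and 0.22 to 0.32), ACAA2 in 20, ETFB in 16 and ACADM in 8. The cytosolic list's median turned negative when all probe sets of a gene were averaged (-0.03) and after subtraction of the hepatocyte markers (-0.02). With 1 pool left out it ran from -0.0085 to 0.066, that of the regulators from -0.11 to 0.019 and that of the carriers from -0.16 to -0.07.

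Limma called 0 probe sets at an adjusted p under 0.05 or 0.1 on all 10 arrays (2135 at an unadjusted p under 0.05; the unmoderated test called 0 and 2202). Without CLA pool 2 and control pool 4 it called 1, CGN1, named here after its value was seen. Probe sets whose groups do not overlap numbered 473, 611 to 925 with 1 pool left out and 1091 without both of those pools, where fewer pools make separation easier. Taking the pool number as a replicate block changed no call, with ACAT1 at an adjusted p of 0.423 and BDH1 at 0.438. Same-numbered pools did not deviate together (correlations from -0.09 to 0.09), so no pairing by number was seen in the values. The labels state no pairing, and whether pools were matched by design cannot be told from these correlations. The alternatives without CLA pool 2 and control pool 4 and with the 1000 nearest probe sets were chosen after seeing the data. The dimness of BDH1 and the number of arrays limit what can be shown.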
